A study of Mus musculus with 4 samples.

Results

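Foxp3+ CD4+ Tc were examined in 4 libraries of spleen Tc from leukemia-bearing mice after allogeneic bone marrow transplantation (BMT). Their members were chosen by RNA: a cell was taken as a CD4+ Tc with at least 1 unique molecular identifier (UMI, which counts a captured RNA molecule once) of Cd3d, Cd3e or Cd3g, at least 1 of Cd4, and none of Cd8a, Cd8b1 or Klf1, and a CD4+ Tc with at least 1 Foxp3 UMI was a member. This gave 112 Foxp3+ cells of 1759 CD4+ Tc, out of 11632 cells kept from 15784 barcodes. The remaining 1647 cells, called other CD4+ Tc below, held no Foxp3 UMI.

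All recipients were BALB/c mice (H-2Kd) that had been lethally irradiated and given 10000 WEHI-3B cells, a mouse myelomonocytic leukemia line, with bone marrow from C57BL/6 mice (H-2Kb) and, on day 2, 200000 donor spleen Tc. Donors were Havcr2fl/fl;E8icre/+ for 2 libraries and Havcr2fl/fl for the other 2. Whether a library held the cells of 1 mouse is not given in the sources used here. Mice of 7 to 12 weeks were used, per the study's methods. Both groups carry the floxed Havcr2 alleles (Havcr2 encodes TIM-3), and the E8i cre deletes TIM-3 in CD8+ Tc, per the study's text. The CD4+ Tc described here are thus not the stated target of the cre. Spleens were taken on day 23, Tc were isolated, by a pan-Tc kit per the labels and by sorting of donor Tc per the study's text, and labelled with an Ab to donor H-2Kb that carries an oligo tag, and 3′ libraries were made with 10x Genomics chemistry. The libraries are called E8icre/+ 1, E8icre/+ 2, floxed 1 and floxed 2, and 4 values in a row stand in that order.

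FOXP3 is the transcription factor that sets and maintains the regulatory program of CD4+ Tc. Treg hold back other Tc through IL-2 consumption by their high-affinity IL-2 receptor, through CTLA-4 and through mediators such as TGF-β, IL-10 and adenosine, and they are known for restraining graft-versus-host disease after allogeneic BMT. Activated Treg in tissues are known to carry the integrin CD103 (Itgae) and the inhibitory receptor KLRG1.

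The 112 cells were spread unevenly, with 32, 57, 6 and 17 in the 4 libraries. They held 147143, 339293, 48295 and 55766 UMIs on genes, so that E8icre/+ 2 carried the most and floxed 1 rested on 6 cells. Their median depth was 3334, 4681, 8841.5 and 2188 UMIs per cell, against 3890, 5349, 5509 and 2789 in other CD4+ Tc, so that members were deeper in floxed 1 and shallower in the other libraries. No member barcode occurred in more than 1 library, while pairs of libraries shared 1 to 6 barcodes among all kept cells. The donor tag had a median of 2242.5, 2695, 4939 and 1901 UMIs per member and of 1623, 1963.5, 2405 and 1113 per other CD4+ Tc, and 1 of 112 members fell under the cut for a low tag (3 median absolute deviations under its library's median). Scrublet called no member a doublet. In CD8+ Tc, the target of the cre, Havcr2 stood at 58.7 and 8.08 CPM (UMIs scaled to the total of gene UMIs) in the libraries labelled E8icre/+ 1 and 2 and at 52.7 and 114 CPM in those labelled floxed 1 and 2. E8icre/+ 1 thus lay within the range of the floxed libraries, against its label. Where the floxed segment lies relative to the counted 3′ end is not given in the sources used here.

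Foxp3 UMIs were found in 5.57%, 9.06%, 2.45% and 5.47% of CD4+ Tc, with exact Clopper-Pearson 95% intervals of 3.84% to 7.78%, 6.94% to 11.6%, 0.904% to 5.25% and 3.22% to 8.61%, which cover counting error only. Over all libraries the share was 6.37% (112 of 1759, median 4552 UMIs per cell). CD8+ Tc had a Foxp3 UMI in 0.539% of cells (23 of 4267, median 4836 UMIs). Cells with no Cd3 UMI had one in 0.164% (7 of 4256, median 15992.5 UMIs). With every cell thinned to 2000 UMIs, the shares were 4.48%, 0.295% and 0.0244%. The share in CD4+ Tc thus lay above those in CD8+ Tc and in cells with no Cd3 UMI at equal depth. Thinning left out 10 members, 74 other CD4+ Tc and 195 CD8+ Tc, which were shallower.

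**Figure D1:**
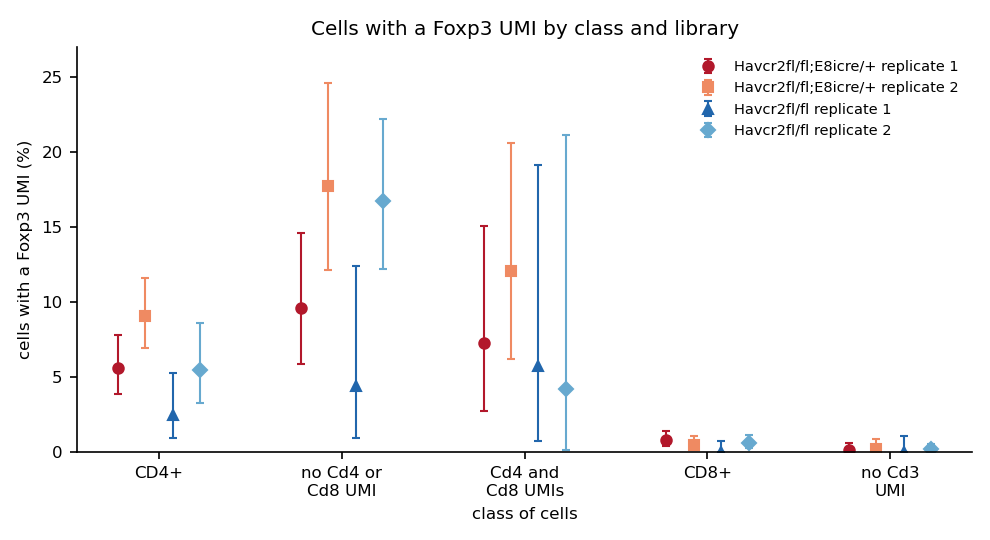
Share of cells with a Foxp3 UMI (y axis, percent) in 5 classes of cells (x axis) of each library. Points are libraries and bars are exact Clopper-Pearson 95% intervals. CD4+ Tc lie between 2.45% and 9.06%, CD8+ Tc and cells with no Cd3 UMI below 1%.

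Tc with neither a Cd4 nor a Cd8a or Cd8b1 UMI had a Foxp3 UMI in 13.5% of cells (89 of 657, median 3458 UMIs), which were not counted as members because the rule needs a Cd4 UMI. Of the members, 33 held 1 Foxp3 UMI and 79 held 2 or more, with a maximum of 9. Summed over members, Foxp3 (ENSMUSG00000039521, GRCm38 chromosome X, 7573644 to 7595245, plus strand) stood at 608, 545, 395 and 657 CPM, as the rule fixes. These values and the CPM values below were scaled with TMM factors unless said otherwise.

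The genes named as markers of this class besides Foxp3 were all far more abundant in members than in other CD4+ Tc. They were named with earlier results of these data in view and are given as a description. Itgae (chromosome 11, 73090583 to 73147446, plus strand), the α chain of CD103, stood at 229.9, 253, 355 and 138 CPM in members and at 2.94, 4.58, 1.95 and 6.52 CPM in other CD4+ Tc. Klrg1 (chromosome 6, 122270596 to 122282882, minus strand), an inhibitory receptor for cadherins, stood at 264, 308, 316 and 294 CPM against 15.8, 8.24, 5.86 and 9.77 CPM. In both, the lowest member library lay more than 10 times above the highest library of other CD4+ Tc. Ikzf2 (chromosome 1, 69531214 to 69687245, minus strand), which encodes the Treg-associated factor Helios, stood at 2129.7, 2105, 1283 and 1401 CPM against 119, 117, 54.7 and 149.9 CPM. Il2ra (chromosome 2, 11642807 to 11693193, plus strand), the CD25 chain of the IL-2 receptor, stood at 473, 390.0, 868 and 381 CPM against 55.1, 36.6, 31.9 and 50 CPM. The classes did not overlap for any of the 4 genes, and the log2 differences were 5.97, 4.83, 4.03 and 3.51.

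Per cell, Ikzf2 was the most widespread of these markers. It was found in 109 of 112 members (97.3%) and in 20.9% of other CD4+ Tc, Il2ra in 65 members (58.0%) against 12.6%, Itgae in 57 (50.9%) against 1.64% and Klrg1 in 46 (41.1%) against 2.98%. By library, Klrg1 or Itgae marked 21 of 32, 41 of 57, 5 of 6 and 8 of 17 members, 75 of 112 in all. Within the members, Klrg1 and Itgae were found together in 28 cells, Klrg1 alone in 18, Itgae alone in 29 and neither in 37. Cells with Klrg1 had a median of 4642.5 UMIs and those without it 3817, and the part of depth in such pairing was not tested. Gzmb was found in 69.6% of Klrg1+ and 42.4% of Klrg1- members, and Il2ra in 76.1% and 45.5%.

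Members just inside the gate resembled those deeper inside it. Thinned to 2000 UMIs, cells with exactly 1 Foxp3 UMI had an Ikzf2 UMI in 96.3% and cells with 2 or more in 89.3%, while CD4+ Tc just outside the gate, with 0 Foxp3 UMIs, had one in 12%. Klrg1 was found in 40.7%, 30.7% and 1.59% of the same classes, Tnfrsf9 in 59.3%, 42.7% and 7.82%, and Il2ra in 33.3%, 49.3% and 6.8%. Pdcd1, which encodes PD-1, ran the other way, with 14.8%, 4% and 32.7%. The Foxp3+ Tc without a Cd4 or Cd8 UMI, outside the gate for lack of a Cd4 UMI, had Ikzf2 in 95.4%, Itgae in 38.5% and Klrg1 in 32.3% of cells.

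**Figure D2:**
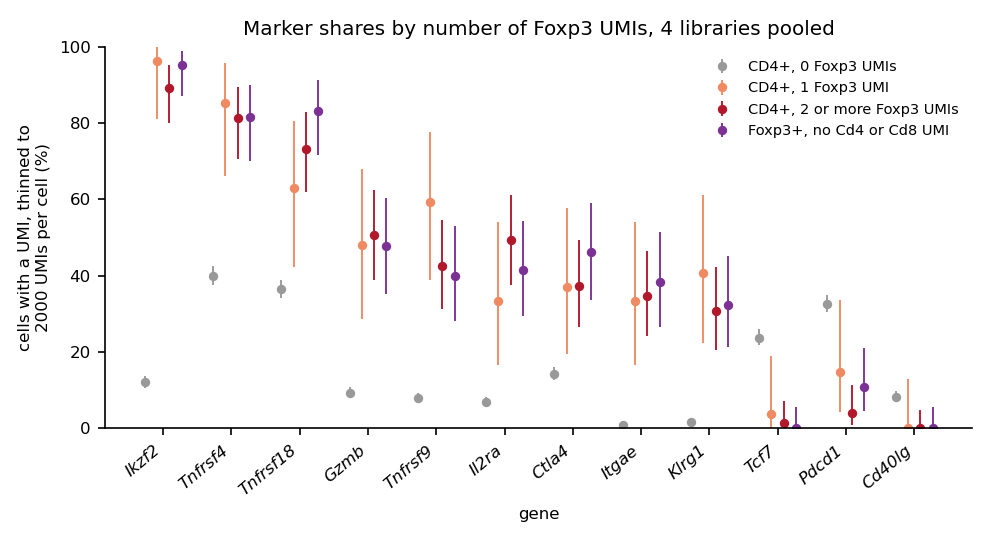
Share of cells with a UMI of each gene (y axis, percent, each cell thinned to 2000 UMIs) in CD4+ Tc with 0, with 1 and with 2 or more Foxp3 UMIs and in Foxp3+ Tc without a Cd4 or Cd8 UMI, 4 libraries pooled. Bars are exact Clopper-Pearson 95% intervals for counting error only. The 3 Foxp3+ classes lie above the Foxp3-negative CD4+ Tc for the first 9 genes and below them for Tcf7, Pdcd1 and Cd40lg.

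To ask in which other genes the classes differed, UMIs were summed per library and class and compared with edgeR's quasi-likelihood test, with the library as a block and Benjamini-Hochberg adjustment over 7057 genes (threshold 0.05). All adjusted p-values below for members against other CD4+ Tc come from this fit, n = 4 libraries per class, and differences are log2 fold changes. Of the tested genes, 544 (7.71%) were called, of which 249 (3.53%) were higher and 295 (4.18%) were lower in members, and the median over all genes was -0.04. For 847 genes (12%) the 4 libraries of the classes did not overlap. Without E8icre/+ 2 the fit called 268 genes and without E8icre/+ 1 it called 332, and 197 of the 544 calls were made in each of the 4 fits that left out a library.

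The genes higher in members included Ikzf4 and Gzmb. Ikzf4, which encodes Eos, a partner of FOXP3, stood at 203, 122, 98.7 and 69.2 CPM against 12.5, 15, 3.25 and 18.5 CPM, a difference of 3.37 ± 0.35 (SE, adjusted p = 1.01e-09). Gzmb (chromosome 14, 56258838 to 56262260, minus strand), the granule protease granzyme B, stood at 689.6, 813, 1736 and 675 CPM against 104, 43.3, 46.9 and 125 CPM, a difference of 3.66 ± 0.25 (SE, adjusted p = 1.37e-14). Neither overlapped between the classes, and Gzmb was found in 12, 34, 6 and 8 members, but 1 cell held 47 of the 102 UMIs in E8icre/+ 1 and 1 cell 46 of the 88 in floxed 1. Itgb8, whose product pairs with αv to activate latent TGF-β, stood at 122, 131, 138 and 86.5 CPM against 22.1, 17.7, 17.6 and 16.3 CPM, a difference of 2.71 ± 0.30 (SE, adjusted p = 6.99e-09). Epcam, an adhesion molecule best known from epithelia, differed by 3.06 ± 0.27 (SE, adjusted p = 2.67e-11), from 122 to 208 CPM against 15.6 to 22.3 CPM. Pmepa1, a TGF-β target that dampens SMAD signaling, differed by 2.71 ± 0.37 (SE, adjusted p = 7.48e-07).

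The same list held genes with no textbook role in Treg. Neb, which encodes the muscle filament protein nebulin, stood at 291, 283, 335 and 138 CPM in members and 31.6, 16.5, 7.16 and 11.9 CPM in other CD4+ Tc, a difference of 3.90 ± 0.26 (SE, adjusted p = 1.25e-14). Rapsn, which encodes the acetylcholine receptor clustering protein rapsyn, differed by 4.09 ± 0.44 (SE, adjusted p = 3.13e-09) on 35 member UMIs. Arl5a, a small GTPase of the ARF-like family, differed by 3.35 ± 0.19 (SE, adjusted p = 2.06e-17), from 363 to 671 CPM against 39.7 to 78.3 CPM. None of the 3 overlapped between the classes. C1qtnf6 differed by 3.33 (adjusted p = 3.46e-07) and the Myc relative Bmyc by 2.97 (adjusted p = 2.04e-09), and Bmyc overlapped, with 229.9, 165, 39.5 and 17.3 CPM in members.

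**Figure D3:**
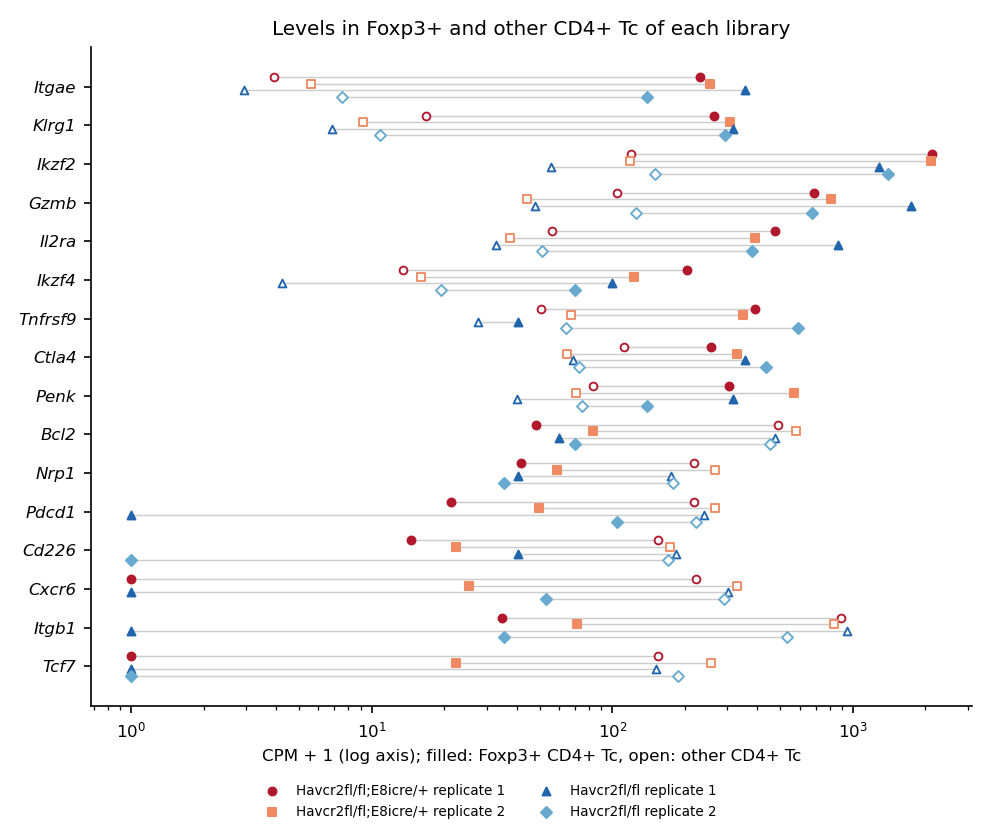
Levels of 16 genes in each library (x axis, CPM + 1 on a log axis). Filled symbols are sums over Foxp3+ CD4+ Tc and open symbols sums over the other CD4+ Tc of the same library, joined by a line. Itgae to Penk lie higher and Bcl2 to Tcf7 lower in Foxp3+ cells of every library.

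The IL-2 receptor and STAT5 list had 14 tested genes, of which 6 were higher and 1 was lower, with a median of 0.23. Socs2, a STAT5-induced feedback inhibitor, stood at 135, 183, 335 and 225 CPM against 51.5, 23.2, 33.2 and 46.7 CPM without overlap, a difference of 2.48 ± 0.26 (SE, adjusted p = 1.84e-09). Cish, another such inhibitor, differed by 1.06 ± 0.18 (SE, adjusted p = 5.47e-05), from 217 to 304 CPM against 95.7 to 161 CPM. The β chain gene Il2rb differed by 0.99 ± 0.17 (SE, adjusted p = 5.14e-05) with overlapping libraries, while the shared γ chain gene Il2rg (0.13, adjusted p = 0.84) and Stat5a and Stat5b were not called. Il7r (0.69) and Socs3 (1.15) were called, but not without E8icre/+ 1, at 0.61 (adjusted p = 0.0622) and 1.13 (adjusted p = 0.166), and Socs3 also not without E8icre/+ 2 or floxed 2, at 1.16 (adjusted p = 0.289) and 1.03 (adjusted p = 0.146). The gene lower in members was Bcl2, a survival factor downstream of cytokine receptors. It stood at 47.3, 82.3, 59.2 and 69.2 CPM against 488, 580.0, 472 and 449.6 CPM, a difference of -2.95 ± 0.23 (SE, adjusted p = 4.85e-13), without overlap.

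Of 17 tested costimulatory and inhibitory receptor genes, 8 were higher and 4 lower (median 0.59). Ctla4, the inhibitory receptor that takes up CD80 and CD86, stood at 257, 329, 355 and 432 CPM against 111, 64.1, 67.7 and 71.7 CPM, a difference of 2.08 ± 0.20 (SE, adjusted p = 2.67e-10). Tnfrsf9 (4-1BB) stood at 392, 347, 39.5 and 588 CPM against 49.6, 66.5, 26.7 and 63 CPM, a difference of 2.66 ± 0.21 (SE, adjusted p = 1.22e-12), and the classes overlapped because of floxed 1. Tnfrsf1b (TNFR2) differed by 2.13 (adjusted p = 1.75e-10), Tnfrsf4 (OX40) by 1.35 (adjusted p = 9.93e-08) and Tnfrsf18 (GITR) by 1.29 (adjusted p = 7.91e-08), each without overlap. OX40 and GITR RNA was found in 104 and 102 of 112 members, but also in 58.5% of other CD4+ Tc each.

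Izumo1r, which encodes the Treg-associated folate receptor 4, differed by 1.65 ± 0.18 (SE, adjusted p = 2.31e-09) without overlap. Lrrc32, which encodes GARP, the surface anchor of latent TGF-β, had 20 UMIs in members and 4 in other CD4+ Tc, a difference of 5.74 ± 0.67 (SE, adjusted p = 1.89e-08), and was too sparse to be tested without E8icre/+ 2. The remaining higher gene, Cd81, was higher in 3 of 4 libraries and was lost without E8icre/+ 1, at 0.92 (adjusted p = 0.0617). Icos (0.59, adjusted p = 0.0626) and Cd28 (-0.44, adjusted p = 0.169) were not called.

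On the other side, Pdcd1 stood at 20.3, 48.7, 0 and 104 CPM in members and 218, 267, 239 and 223 CPM in other CD4+ Tc, a difference of -2.54 ± 0.29 (SE, adjusted p = 1.49e-08). Cd226, an activating receptor for CD155, stood at 13.5, 21.3, 39.5 and 0 CPM against 154, 172, 182 and 169 CPM, a difference of -3.16 ± 0.34 (SE, adjusted p = 3.77e-09). Nrp1, a surface protein often used to mark thymus-derived Treg, was also lower in members, with 40.6, 57.9, 39.5 and 34.6 CPM against 218, 266, 175 and 177 CPM and a difference of -2.26 ± 0.26 (SE, adjusted p = 9.18e-09). None of these 3 overlapped. Cd96 (-1.43, adjusted p = 0.00851) was lost without E8icre/+ 2, at -1.48 (adjusted p = 0.17). Havcr2 itself stood at 33.8, 27.4, 78.9 and 0 CPM in members, a difference of -0.30 ± 0.44 (SE, adjusted p = 0.847) on 18 UMIs.

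Of 23 tested genes for FOXP3 partners and Tc fate factors, 6 were higher and 6 lower (median -0.21). Besides Ikzf2 and Ikzf4, Prdm1 (BLIMP-1), which marks effector Treg, was higher by 1.62 ± 0.23 (SE, adjusted p = 1.7e-06), from 98.7 to 257 CPM against 40.2 to 77.2 CPM, and Foxo1 by 1.50 ± 0.24 (SE, adjusted p = 1.49e-05), from 118 to 189 CPM against 50.4 to 58.6 CPM. Maf differed by 0.78 (adjusted p = 0.000723), and Ikzf3 (0.68) was lost without E8icre/+ 1, at 0.58 (adjusted p = 0.271), and without E8icre/+ 2, at 0.68 (adjusted p = 0.197). Tcf7 (chromosome 11, 52252371 to 52283014, minus strand), which encodes TCF-1, a factor of stem-like and memory Tc, stood at 0, 21.3, 0 and 0 CPM against 154, 257, 151 and 186 CPM, a difference of -4.20 ± 0.39 (SE, adjusted p = 5.97e-11). Its 7 member UMIs lay in 4 cells, all in E8icre/+ 2, so that no member UMI was left without that library. Id3 had 3 UMIs where the level of the other CD4+ Tc would give 35.3 (ratio 0.085, exact Poisson 95% interval 0.0175 to 0.249), whereas Id2, its relative, stood at 521, 411, 749.8 and 173 CPM against 1118, 1005, 1089 and 1083 CPM, a difference of -1.27 (adjusted p = 5.75e-06). Ikzf1 and Runx3 were lower, at -1.20 (adjusted p = 3.38e-05) and -1.28 (adjusted p = 0.000146). Eomes (-1.46) was lost without E8icre/+ 1, at -1.77 (adjusted p = 0.105), and without E8icre/+ 2, at -1.44 (adjusted p = 0.311). Gata3, Tbx21, Batf, Irf4 and Runx1 were not called, and Bcl6 was below the count filter.

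Suppressive mediators were higher in 5 of 11 tested genes and lower in none (median 0.43). Gzmb has been described above. Areg, which encodes the tissue repair factor amphiregulin, stood at 40.6, 24.4, 39.5 and 51.9 CPM against 1.84, 1.83, 1.95 and 1.09 CPM without overlap, a difference of 4.20 ± 0.55 (SE, adjusted p = 2.96e-07) on 19 UMIs in 11 members. Fgl2, a secreted suppressor of antigen-presenting cells, differed by 1.68 ± 0.23 (SE, adjusted p = 7.16e-07), from 158 to 329 CPM against 48.2 to 99.6 CPM. Entpd1 (CD39) and Nt5e (CD73), which turn extracellular ATP into adenosine, differed by 1.32 (adjusted p = 0.00206) and 1.16 (adjusted p = 0.0173). Both were lost without E8icre/+ 2, at 1.28 (adjusted p = 0.126) and 1.44 (adjusted p = 0.145), and Nt5e also without E8icre/+ 1, at 1.09 (adjusted p = 0.155). The cytokine genes Il10 (0.43, adjusted p = 0.842, 8 UMIs in 6 members) and Tgfb1 (0.31, adjusted p = 0.573) were not called. Ebi3, Lgals1, Cd274 and Prf1 were not called either.

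Cytokines and ligands of helper cells ran the other way. Only 5 of 15 genes had enough UMIs to be tested, and 4 of these were lower in members (median -3.02). Tnfsf8, which encodes CD30 ligand, stood at 13.5, 6.09, 0 and 0 CPM against 218, 439, 248 and 254 CPM, a difference of -5.63 ± 0.39 (SE, adjusted p = 2.85e-14), which became -6.40 (adjusted p = 9.97e-09) without E8icre/+ 1 and -4.90 (adjusted p = 6.39e-09) without E8icre/+ 2. Cd40lg, the helper ligand for B cells and dendritic cells, had 1 UMI where the level of the other CD4+ Tc would give 27.2 (ratio 0.0368, exact Poisson 95% interval 0.000931 to 0.205). Ifng stood at 0, 27.4, 0 and 0 CPM against 88.6, 81.8, 55.3 and 168 CPM, a difference of -2.60 ± 0.45 (SE, adjusted p = 4.34e-05), and Il21 at 0, 15.2, 0 and 0 CPM against 64.7, 68.7, 57.3 and 83.6 CPM, a difference of -3.02 ± 0.52 (SE, adjusted p = 4.79e-05). The 9 Ifng and 5 Il21 UMIs of members were all in E8icre/+ 2, so that none was left without that library. Tnfsf11 (-1.45, adjusted p = 0.119) was not called.

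**Figure D4:**
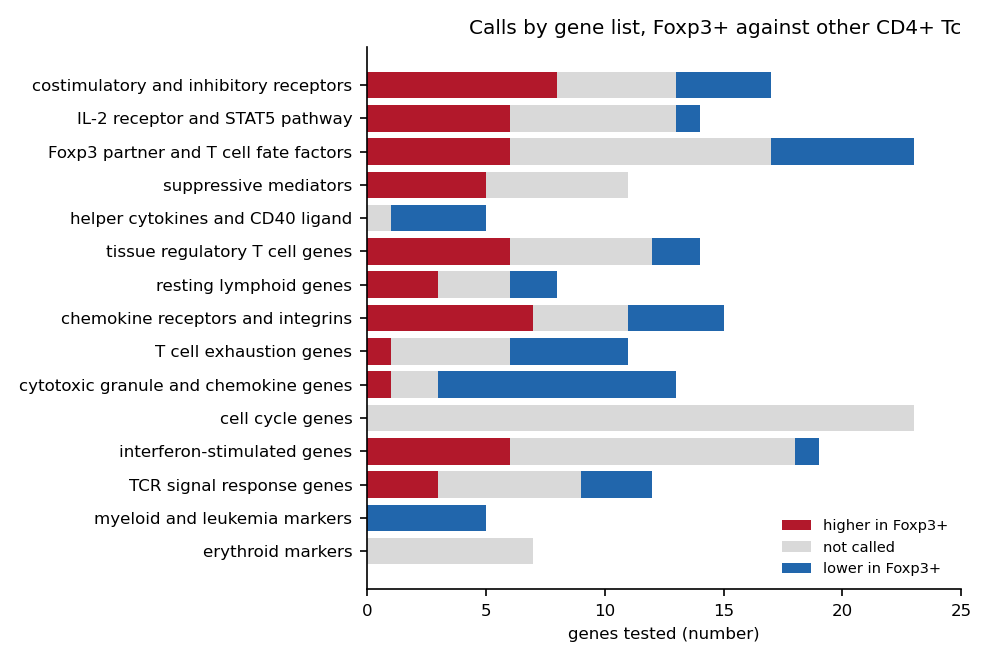
Number of tested genes (x axis) of each list (y axis, lists with at least 5 tested genes) that were higher, not called or lower in Foxp3+ than in other CD4+ Tc by edgeR at an adjusted p of 0.05. Helper cytokine, cytotoxic and myeloid genes were mostly lower and cell cycle and erythroid genes were not called, while suppressive mediators were higher or not called.

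Homing genes differed in both directions, with 7 of 15 tested chemokine receptor and integrin genes higher and 4 lower (median 0.67). Beside Itgae, its partner chain Itgb7 was called at 0.76 (adjusted p = 0.00143), and Itgav, the partner of Itgb8, at 0.85 (adjusted p = 0.0472). Itgb7 was lost without E8icre/+ 2, at 0.64 (adjusted p = 0.109), and Itgav without E8icre/+ 2, floxed 1 or floxed 2, at 0.60 (adjusted p = 0.692), 0.89 (adjusted p = 0.0581) and 0.71 (adjusted p = 0.152). Itgb1 (chromosome 8, 128685654 to 128733200, plus strand), the β1 chain shared by many matrix and vascular integrins, was lower in every library. It stood at 33.8, 70.1, 0 and 34.6 CPM in members and 892, 833, 943 and 533 CPM in other CD4+ Tc, a difference of -4.14 ± 0.27 (SE, adjusted p = 2.2e-15), with 30 UMIs in 18 of 112 members, and of -4.93 (adjusted p = 7.45e-14) without E8icre/+ 2. Its partner chain Itga4 differed by -1.09 (adjusted p = 1.09e-05) and Itgal, the α chain of LFA-1, by -1.18 (adjusted p = 3.2e-05), both without overlap.

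Cxcr6, a receptor of resident and effector Tc, stood at 0, 24.4, 0 and 51.9 CPM against 221, 328, 301 and 291 CPM, a difference of -3.98 ± 0.34 (SE, adjusted p = 8.76e-12). Ccr2 was called at 0.99 (adjusted p = 0.00481), but was higher in only 2 of 4 libraries, with 433, 122, 691 and 104 CPM in members against 149, 133, 153 and 122 CPM. It was not called without E8icre/+ 1, at 0.71 (adjusted p = 0.375), or without floxed 1, at 0.62 (adjusted p = 0.213). Of 14 tested tissue Treg genes, 6 were higher and 2 lower (median 0.43). Penk, which encodes the opioid precursor proenkephalin, stood at 304, 569.7, 316 and 138 CPM against 82.3, 69.6, 39 and 73.8 CPM without overlap, a difference of 2.41 ± 0.22 (SE, adjusted p = 6.81e-11). Gata3, Il1rl1 and Il10 were not called. Rora (-1.06) was lower, and lost without E8icre/+ 2, at -0.93 (adjusted p = 0.167).

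Genes of resting lymphoid cells differed in both directions, with 3 of 8 tested genes higher and 2 lower (median -0.31). Klf2, a quiescence factor that drives S1pr1, stood at 122, 192, 59.2 and 190.3 CPM against 268, 313, 612 and 582 CPM, a difference of -1.31 ± 0.22 (SE, adjusted p = 3.53e-05). S1pr1 was not called (-0.51, adjusted p = 0.324), and Ccr7 was found in 2 of 112 members.

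Cytotoxic granule and chemokine genes were lower in 10 of 13 tested genes (median -1.98), and Gzmb was the only one higher. Ccl5 stood at 1656, 2157, 1243 and 588 CPM in members and 7737, 4191, 4979 and 4635 CPM in other CD4+ Tc, a difference of -1.98 ± 0.18 (SE, adjusted p = 4.61e-11). Ccl3 differed by -3.28 ± 0.33 (SE, adjusted p = 4.89e-10), from 6.76 to 30.5 CPM against 102 to 559 CPM, and by -4.58 (adjusted p = 1.45e-09) without E8icre/+ 2. Nkg7, a granule membrane protein, differed by -1.0 ± 0.17 (SE, adjusted p = 3.28e-05). Gzma, granzyme A, had 2 UMIs where the level of the other CD4+ Tc would give 83.7 (ratio 0.0239, exact Poisson 95% interval 0.00289 to 0.0863), and its libraries overlapped, with 0, 3.05, 0 and 17.3 CPM in members against 52.2, 143, 8.46 and 623 CPM. Without floxed 2 it was too sparse to be tested. Klrd1, which encodes the CD94 chain of NK receptors, had 1 UMI where the level of the other CD4+ Tc would give 38.8 (ratio 0.0258, exact Poisson 95% interval 0.000652 to 0.144). Ccl4 and Klrk1 were each lower in 3 of 4 libraries only. Ccl4 (-1.45, adjusted p = 0.00486) was lost without E8icre/+ 1 and without floxed 1, at -0.78 (adjusted p = 0.343) and -1.26 (adjusted p = 0.105), and stood at -3.26 (adjusted p = 1.03e-08) without E8icre/+ 2. Ctsw was lost without E8icre/+ 2, at -1.16 (adjusted p = 0.0591), and Klrk1, with 1 member UMI, without E8icre/+ 1, at -2.79 (adjusted p = 0.241) and floxed 2, at -3.20 (adjusted p = 0.0518), and too sparse to be tested without E8icre/+ 2. Prf1, perforin, was not called (-1.59, adjusted p = 0.0712), but was without floxed 1 (-2.05, adjusted p = 0.028).

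Of 11 tested exhaustion genes, 5 were lower (Pdcd1, Tox, Tox2, Cd160 and Eomes) and Entpd1 was higher (median -0.70). Cd160 had no UMI in members and was at least 7.85-fold lower, against a floor of 3 UMIs over all members. Tox stood at 196, 356, 59.2 and 121 CPM against 313, 638, 463 and 292 CPM, a difference of -1.07 ± 0.21 (SE, adjusted p = 0.000313) with overlap. Tox2 had 2 UMIs where the level of the other CD4+ Tc would give 19.2 (ratio 0.104, exact Poisson 95% interval 0.0126 to 0.377) and was lost without E8icre/+ 2, at -1.94 (adjusted p = 0.381). Lag3 (-0.55, adjusted p = 0.208), Tigit and Havcr2 were not called.

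The other genes that were lowest in members by the rule of size were of mixed function. Sostdc1, a secreted antagonist of BMP and Wnt signals, and Spp1, osteopontin, had no UMI in any member and were at least 22.3-fold lower and at least 10.4-fold lower. Spp1 was too sparse to be tested without E8icre/+ 2. Nrgn, the calmodulin-binding protein neurogranin, had 1 UMI where the level of the other CD4+ Tc would give 102 (ratio 0.00984, exact Poisson 95% interval 0.000249 to 0.0548). Ms4a4c had 1 UMI where the level of the other CD4+ Tc would give 37.5 (ratio 0.0267, exact Poisson 95% interval 0.000675 to 0.149). The endocytic recycling gene Ehd3 had 1 UMI where the level of the other CD4+ Tc would give 34.3 (ratio 0.0291, exact Poisson 95% interval 0.000737 to 0.162). Gldc, which encodes glycine decarboxylase, had 2 UMIs where the level of the other CD4+ Tc would give 34.3 (ratio 0.0584, exact Poisson 95% interval 0.00707 to 0.211). Ly6c2 stood at 0, 12.2, 19.7 and 17.3 CPM against 171, 204, 395 and 138 CPM, a difference of -4.31 ± 0.38 (SE, adjusted p = 1.56e-11). The last ones, Serpinb1a (1 UMI), Prtn3 (2 UMIs) and Ighg2c (8 UMIs), are known from neutrophils, granulocyte precursors and plasma cells. Ighg2c stood at 1139.7 CPM in other CD4+ Tc of E8icre/+ 1 and was lost without that library, at -1.29 (adjusted p = 0.397), while without E8icre/+ 2 it stood at -5.81 (adjusted p = 3.49e-12).

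TCR signal response genes were split, with 3 of 12 higher and 3 lower (median -0.65). Tnfrsf9 and Tnfrsf4 were higher, as was the phosphatase gene Dusp5, at 1.88 ± 0.25 (SE, adjusted p = 2.96e-07). Dusp2 differed by -1.86 ± 0.21 (SE, adjusted p = 6.4e-09), from 78.9 to 121 CPM against 341 to 451 CPM, and Cd44, the hyaluronan receptor of activated Tc, by -2.05 ± 0.29 (SE, adjusted p = 9.86e-07), from 20.3 to 69.2 CPM against 146 to 176 CPM. Cd69 (-1.09) was lost without E8icre/+ 1, at -0.84 (adjusted p = 0.238), and stood at -1.72 (adjusted p = 0.0117) without E8icre/+ 2. Egr1, Egr2, Nr4a2 and Nfatc1 were not called.

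The TCR chains themselves, chosen after their values were seen, were unequal. Trac, the α constant gene, stood at 811, 920.1, 612 and 899 CPM in members and 655, 778, 681 and 725 CPM in other CD4+ Tc, a difference of 0.20 ± 0.16 (SE, adjusted p = 0.643). Trbc1 stood at 338, 460.1, 257 and 432 CPM against 1177, 799.8, 995 and 1277 CPM, a difference of -1.45 ± 0.18 (SE, adjusted p = 1.29e-07), and Trbc2 at 602, 862, 730.1 and 675 CPM against 1775, 1995, 1602 and 2022 CPM, a difference of -1.37 ± 0.16 (SE, adjusted p = 9.39e-09). Neither Trbc gene overlapped, and a UMI of either was found in 99 of 112 members and 1630 of 1647 other CD4+ Tc.

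A β variable gene was seen in 13 members (11.6%) and in 406 other CD4+ Tc (24.7%). In 3′ libraries few reads reach the variable segment. Trbv12-1 made up 10 of the 13, with 2 of 2 in E8icre/+ 1 and 8 of 10 in E8icre/+ 2, while the single such cell of floxed 1 carried Trbv19 and floxed 2 had none. Among other CD4+ Tc, Trbv12-1 was seen in 7 of 406 cells (1.72%), and the most frequent gene there was Trbv16 (17.2%). CD8+ Tc carried Trbv12-1 in 67 of 1128 cells with a β variable gene (5.94%), and Foxp3+ Tc without a Cd4 or Cd8 UMI in none of 3. An α variable gene was seen in 33 members, most often Trav16n (6 cells), Trav3-3 (5) and Trav5-4 (5). No test was run on these shares.

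No cell cycle gene was called among 23 tested (median 0.15). Mki67, the proliferation marker, stood at 392, 445, 39.5 and 381 CPM in members and 419, 199, 145 and 289.9 CPM in other CD4+ Tc, a difference of 0.38 ± 0.21 (SE, adjusted p = 0.389), and was found in 34 of 112 members (30.4%) against 21.4%. Members of floxed 1 had the lowest value, and the classes overlapped. Interferon-stimulated genes were higher in 6 of 19 tested genes and lower in 1 (median 0.62). Oas1a, an antiviral RNA sensor, differed by 1.74 ± 0.40 (SE, adjusted p = 0.00271), from 45.7 to 86.5 CPM against 10.9 to 19.5 CPM, and Slfn1 was lower, at -1.0 (adjusted p = 0.00177). Calls of the following members of the list ended without 1 or more libraries. Isg15 (0.89) was not called without E8icre/+ 1, E8icre/+ 2 or floxed 2, at 1.02 (adjusted p = 0.0706), 1.00 (adjusted p = 0.163) and 0.75 (adjusted p = 0.106), and Ifit1 (1.34) stood at 0.48 (adjusted p = 0.905) without E8icre/+ 2 and 1.16 (adjusted p = 0.0677) without floxed 2. Ifit1 was higher in members of only 2 of 4 libraries, with 13.5, 97.5, 0 and 104 CPM against 27.6, 25, 11.1 and 21.7 CPM. Stat2 (1.23) stood at 0.82 (adjusted p = 0.563) without E8icre/+ 1 and 1.17 (adjusted p = 0.0952) without floxed 1, and Isg20 (0.94) at 0.98 (adjusted p = 0.0566) without E8icre/+ 1.

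Markers of other cell types were measured as CPM without TMM scaling, here and in their sums below. No UMI was found in members for 6 of 12 B cell genes (Ms4a1, Pax5, Ebf1 and Blnk among them), 7 of 8 NK genes, all 7 γδ Tc genes in the files, 4 of 13 myeloid genes (Csf1r, Cd68, Tyrobp and Spi1) and 5 of 9 dendritic cell genes (Flt3, Xcr1, Clec9a, Siglech and Itgax). Others of these lists were detected at low counts, with 2 member UMIs of Cd79a, 3 of Cd79b and 5 of Ighd (B cells), 3 of Zbtb46, 8 of H2-Aa and 12 of H2-Ab1 (dendritic cells), and 2 of Lyz2 and 3 of Fcer1g (myeloid cells). The γδ list stood at 0 CPM and the NK list at 0, 2.95, 0 and 17.9 CPM, its only detected gene being Gzma. All 5 tested genes of 13 myeloid and leukemia markers (Mpo, Elane, Prtn3, Ctsg and Fcer1g) were lower in members (median -3.59), but Elane was too sparse to be tested without floxed 1 and Fcer1g was lost without E8icre/+ 2, at -2.28 (adjusted p = 0.192). That list summed to 47.6, 32.4, 82.8 and 35.9 CPM against 229, 359, 6370 and 425 CPM, where the other CD4+ Tc of floxed 1 held 3656 CPM of S100a8.

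B cell markers summed to 748, 525, 621 and 538 CPM in members, nearly all of it Ighm (720, 501, 579.8 and 484 CPM), and to 364, 1080, 90.8 and 164 CPM in other CD4+ Tc. Ighm was called at 1.37 (adjusted p = 0.00129), higher in 3 of 4 libraries, and lost without E8icre/+ 1, at 0.95 (adjusted p = 0.257), and without floxed 1, at 0.99 (adjusted p = 0.145), while without E8icre/+ 2 it stood at 2.27 (adjusted p = 4.71e-11). Jchain, the other tested gene of the 12, differed by -4.64, lower in 3 of 4 libraries, with overlap. It stood at -3.36 (adjusted p = 0.00155) without E8icre/+ 2 and was too sparse to be tested without floxed 2. Cd74, the MHC class II invariant chain and the only tested gene of 9 dendritic cell markers, stood, on the TMM scale, at 534, 585, 296 and 432 CPM against 141, 96.2, 34.5 and 99.9 CPM without overlap, a difference of 2.35 ± 0.18 (SE, adjusted p = 8.02e-13). It was spread over 83 of 112 members with at most 13 UMIs in 1 cell, while the class II gene H2-Aa was found in 3 members.

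Erythroid markers summed to 197, 8541, 248 and 36743 CPM in members and 5928, 7965, 281 and 5001 CPM in other CD4+ Tc, and 0 of 7 tested genes were called. Their most abundant gene, Hbb-bs, had 1734 of its 1772 member UMIs of E8icre/+ 2 in 1 cell and 1034 of 1055 in floxed 2 in 1 cell. These 2 members, and 15 other CD4+ Tc, held 100 or more Hbb-bs UMIs. Without these cells the test called 579 genes, 263 higher and 316 lower. Leaving the same cells out of the genotype and interaction tests is described with those tests.

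**Figure D5:**
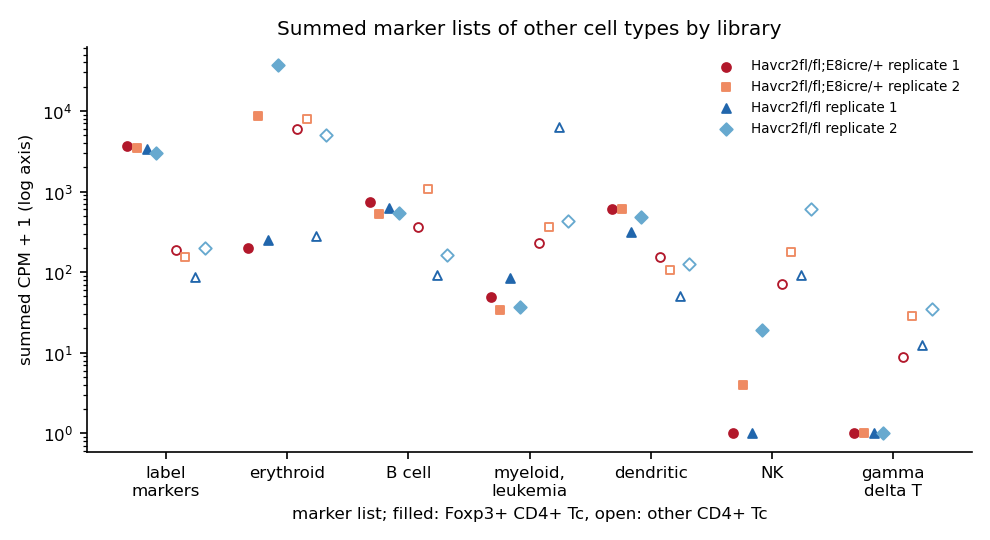
Summed CPM + 1 (y axis, log axis) of marker lists (x axis) in each library, for Foxp3+ CD4+ Tc (filled) and other CD4+ Tc (open). The label's own markers, which include Foxp3 and so differ in part by the rule, lie between 2977 and 3724 CPM in Foxp3+ cells and between 87.2 and 198 CPM in the others. Erythroid sums differ between libraries by over 100-fold in Foxp3+ cells, and γδ sums are 0 there.

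Finally, the genotypes of the donors were compared, with n = 2 libraries each. The Foxp3+ share of CD4+ Tc was 5.57% and 9.06% in the libraries labelled E8icre/+ and 2.45% and 5.47% in those labelled floxed. The means were 7.32% and 3.96%, a log2 ratio of 0.89, and the ranges did not overlap, though E8icre/+ 1 and floxed 2 lay within each other's intervals. An exact permutation test over the libraries gave a two-sided p of 0.333, the smallest that 2 against 2 can give. The ratio ranged from 0.42 without floxed 1 to 1.58 without floxed 2, and thinned to 2000 UMIs the means were 5.50% and 1.78% (log2 ratio 1.63, with 2 and 7 members left in the floxed libraries).

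Within members, 0 of 1946 tested genes (0%) were called between genotypes by edgeR's quasi-likelihood test, with 77 at an unadjusted p under 0.05. DESeq2 called 0, with 16 at an unadjusted p under 0.05. Itgae, Klrg1, Ikzf2, Il2ra, Gzmb and Ctla4 were thus not called, and their member libraries are given above. In simulated counts of the same depth, the edgeR test between genotypes recovered 0% of genes changed by a log2 of 1. It recovered 85% of genes changed by a log2 of 2. A gene that was not called is thus not shown to be equal between genotypes. With a library left out, a genotype keeps a single library and the spread comes from the other genotype alone. Calls from those fits are therefore not given. With 6 and 17 cells in the floxed libraries, only genes with many UMIs could be tested, and Havcr2, Areg and Tcf7 were not among them.

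Whether the distance of members from other CD4+ Tc differed between genotypes was tested as an interaction, and 16 of 8088 genes (0.198%) were called by edgeR and 1 by DESeq2. The 16 were 4 globin genes, Igkc, Ighg1, Ighm, S100a4, S100a8, S100a9, Ifitm1, Hist1h3c, Plac8, Hmgb2, Slfn5 and Car2. With the cells of 100 or more Hbb-bs UMIs left out, 0 of 1909 genes were called between genotypes in members. In the interaction, 10 genes were called without them and none of the 4 globin genes was, with adjusted p = 1 each. F830016B08Rik and Hist1h2ap, not among the 16, were called there. No marker of the class was among the calls.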

How the data were processed

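The deposited values are whole-number UMI counts per gene and barcode, with 1 antibody tag, made by the authors with Cell Ranger 6.1.2 against mm10, per the labels and the submitters' processing notes, and not normalized. The libraries held 4328, 3208, 1511 and 6737 barcodes with 38386626, 31449644, 17693991 and 55045903 gene UMIs. Barcodes passed with 500 genes or more, 1000 gene UMIs or more and no more than 10% of UMIs from mt- genes, which left 3431, 2551, 1213 and 4437 cells, in Python 3.11.15 with numpy 2.4.6 and scipy 1.17.1. Groups came from the genotype labels. The members, the gene lists and the tests were chosen with earlier results of these data known.

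UMIs were summed per library and class. Genes passing filterByExpr entered edgeR 4.0.16 (TMM scaling, glmQLFit, glmQLFTest, Benjamini-Hochberg adjustment at 0.05) in R 4.3.3, with the library as a block for members against other CD4+ Tc. Genes that the gate reads (Foxp3, Cd4, Cd8a, Cd8b1, Cd3d, Cd3e, Cd3g, Klf1) were left out of the test of members against other CD4+ Tc and of the interaction, but not of the test between genotypes. A fold change of a gene with few UMIs depends on the prior count of the fit. In the main fit, genes with up to 3 member UMIs are therefore given by counts, with a floor of 3 UMIs over the group for a count of 0. Fitted values of such genes enter only the fits without a library, the medians of lists and the interaction, and are no bound. PCR duplicates are removed by UMIs, and intervals cover counting error only. Named genes were those of the lists, and up to 15 genes in each direction with the largest log2 fold change, called, with the same direction in all 4 libraries and a mean of at least 50 CPM in the higher class, without variable genes and Gm or Rik models. The same rule allowed 5 per direction between genotypes, and none qualified. The other genes were chosen after their values were seen, Trac, Trbc1, Trbc2 and the variable genes among them. Some genes counted in the lists are not reported here by name. Positions are from GENCODE M21 on GRCm38, the build of mm10.

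Alternatives were DESeq2 1.42.0, its size factors in edgeR, no filter on low counts, each library left out, 1000 genes, 2000 UMIs and 5% mitochondrial UMIs, removal of the highest Scrublet scores (0.8% per 1000 barcodes, since Scrublet called 1, 6, 7 and 105 cells), donor tag only, at least 2 Foxp3 UMIs, thinning to 2000 UMIs, and models with or without a block. Added after seeing the data were Foxp3+ Tc without Cd4 or Cd8 UMIs, leaving out globin and immunoglobulin genes, and leaving out cells with 100 or more Hbb-bs UMIs. The scripts were tested on simulated counts of the same depth. The sources used here do not say whether libraries come from single mice, and p-values measure the spread between these libraries. Figures were drawn with matplotlib 3.10.9.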

Additional observations from a re-analysis of the deposited data

Results flagged for a closer look

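The difference of members from other CD4+ Tc differed between genotypes in 16 genes, by edgeR's interaction test (n = 2 libraries per genotype, adjusted p below 0.05), while DESeq2 called 1 gene. Values are log2 interactions, negative where the members of the libraries labelled E8icre/+ stand lower relative to the other CD4+ Tc. The 4 globin genes gave -4.06 (Hba-a1), -3.75 (Hbb-bs), -3.60 (Hba-a2) and -3.63 (Hbb-bt), and in both member libraries with high globin nearly all Hbb-bs UMIs were in 1 cell. Without the cells of 100 or more Hbb-bs UMIs their values were 0.27, 0.03, 0.27 and 0.02, and Car2 stood at -2.17 (adjusted p = 1) where it had been -4.06. Immunoglobulin genes gave -3.33 (Igkc), -6.94 (Ighg1) and -1.43 (Ighm). Unscaled (without TMM factors), Igkc stood at 415, 383, 289.9 and 574 CPM in members and 6118, 2882, 177 and 664 CPM in other CD4+ Tc. The fitted value of Ighg1 rests on 4 member UMIs and is no bound. Its unscaled levels in other CD4+ Tc were 1504, 2.50, 67.4 and 22.9 CPM, high in E8icre/+ 1 only.

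Ifitm1 gave -6.48, and 22 of its 23 member UMIs were in 1 cell of floxed 1. S100a4 gave -1.68, with unscaled levels of 211, 569, 3375 and 735 CPM in members and 1492, 2077, 2538 and 1985 CPM in other CD4+ Tc. S100a9 gave 12.7 and S100a8 12.9, fitted values that rest on 6 and 3 member UMIs and are no bound. In other CD4+ Tc, S100a9 stood unscaled at 16.2, 8.60, 1423 and 6.96 CPM and S100a8 at 15.5, 11.7, 3656 and 12.9 CPM. Both were thus high in other CD4+ Tc of floxed 1 only. Hist1h3c gave 9.91 and Slfn5 9.66, both with no UMI in members of either floxed library, so that these fitted values are no bound either. Of the 98 member UMIs of Hist1h3c, 95 were in 5 cells of E8icre/+ 2, with 50 in 1 cell. Plac8 gave 1.84 and Hmgb2 1.27. Without the cells of 100 or more Hbb-bs UMIs, Slfn5 (9.73, adjusted p = 0.0632) and Hmgb2 (0.90, adjusted p = 0.666) were no longer called and S100a8 was too sparse to be tested, while F830016B08Rik (11.0, adjusted p = 0.0307) and Hist1h2ap (1.47, adjusted p = 0.0352) were called in addition.

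Outside the members, 13.5% of Tc without a Cd4, Cd8a or Cd8b1 UMI had a Foxp3 UMI, against 0.539% of CD8+ Tc, a signal in cells that no comparison above used as members. By library the share was 9.60%, 17.7%, 4.41% and 16.7%. Whether a Cd4 UMI was missed in these cells was not tested.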

How the results depend on the processing

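Of the 544 genes called between members and other CD4+ Tc (249 higher, 295 lower), all that could be tested kept their direction under every alternative except 1 of 434 with cells thinned to 2000 UMIs. The number of calls moved with the tool and the cells used. DESeq2 called 333 (161 higher, 172 lower), thinning 313 (119 and 194), and members with at least 2 Foxp3 UMIs 362 (143 higher). With a library left out, 268 to 529 genes were called, 122 to 240 higher and 146 to 289 lower, lowest without E8icre/+ 2. Without the library block, 358 were called, 167 of them lower. Adding Foxp3+ Tc without Cd4 or Cd8 UMIs gave 410 higher. Single genes that were not called changed sign: Mki67 ranged from -0.12 without E8icre/+ 2 to 0.57 without E8icre/+ 1, and Trac stood at -0.00671 when thinned. Between genotypes, the count of 0 became 15 with no filter on low counts. Fits with a library left out keep a single library in a genotype, and their calls are not given. With the replicate number as a block the count between genotypes was 0, and samples of the same number were not paired by a label. The correlation of their deviations was 0.14 for both replicate numbers. With 2 libraries per genotype the deviations are equal and opposite, so that this is a single value and cannot decide on pairing. The interaction gave 1 gene by DESeq2 and 10 without cells of 100 or more Hbb-bs UMIs. For the Foxp3+ share, leaving out a library gave log2 ratios from 0.42 to 1.58. Fisher's exact test on pooled cells gave p = 0.00855 at a log2 ratio of 0.84. That test takes cells as units, not the 2 libraries per genotype, so its p cannot speak for a difference between genotypes. The permutation test over libraries gave p = 0.333. The floxed libraries held the fewest members, 6 and 17, and depth limits floxed 2, where thinning left out 6 of 17.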
